A study of Mus musculus with 6 samples.

Results

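The genes of the Rag GTPases, the Ragulator complex and folliculin were followed in Neuro2a cells given RNA interference against the transcription factors USF1 and USF2. The set held 10 genes chosen by name, Rraga, Rragb, Rragc, Rragd, Lamtor1 to Lamtor5 and Flcn, and all 10 were measured, by 12 of 22891 transcript clusters (the array's probe sets for a transcript), among 16583 genes with a single symbol in all. Neuro2a is a mouse neuroblastoma line. In the knockdown group (3 arrays) the cells had been transfected, using a lipid reagent, with vectors that express microRNA-style RNA interference against Usf1 or Usf2, and in the control group (3 arrays) with an empty vector. All samples are of 1 cell line, and neither the share of cells that took up a vector nor the time after transfection is given in the sources used here. RNA was read on Affymetrix Mouse Gene 1.0 ST arrays, and the comparison was made to find genes controlled by the USF factors. The arrays of a group are labelled as biological replicates without word of separate cultures, so the spread behind each p-value is that between these samples and may be only technical.

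Rag GTPases work as pairs of RagA or RagB with RagC or RagD on the surface of lysosomes. Ragulator, built from the LAMTOR proteins, anchors the pairs to the lysosomal membrane, and when amino acids are plentiful the Rags recruit the growth-promoting kinase complex mTORC1 there. Folliculin, with its FNIP partners, switches the nucleotide state of RagC and RagD and so also governs the lysosomal transcription factors TFEB and TFE3. USF1 and USF2 bind the palindromic E-box CACGTG, the core that TFEB and TFE3 bind as well.

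Because USF factors bind CACGTG, that sequence was searched in the RefSeq promoter windows of the genes (GRCm38.p6, 250 bases before to 50 after the annotated start site, 300 bases in all). A window was at hand for 9 genes and not for Lamtor3. CACGTG reads the same on both strands, so each match was counted once. It occurred 3 times in the window of Rragb, 2 times in that of Lamtor4 and 1 time each in those of Rragc and Lamtor1, and 0 times in those of Rraga, Rragd, Lamtor2, Lamtor5 and Flcn. Among all 32851 windows, 7.15% held it at least 1 time, 0.594% at least 2 times and 0.0883% at least 3 times. These windows are of 27025 genes, also ones not tested here. Of the 10609 tested genes with exactly 1 window, 890 held it 1 time, 89 held it 2 times and 15 held it 3 or more times. In the brighter class, explained below, these counts were 480, 52 and 11, beside 4237 genes with 0 matches. The windows of Rragb and its close paralog Rraga are shown for their unlike log2 changes, -0.49 and 0.0034, neither of which passed over all genes. Those of Rragc and Lamtor1 are shown because each held 1 match. The window of Lamtor4, whose log2 change was -0.035, is not shown. Its 2 matches lay at bases 131 to 136 and 147 to 152. Capitals mark CACGTG. The windows are chrX:153139708-153140007 for Rragb, chr4:86575423-86575722 for Rraga, chr4:123917183-123917482 for Rragc and chr7:101905587-101905886 for Lamtor1, all on the plus strand.
Rragb: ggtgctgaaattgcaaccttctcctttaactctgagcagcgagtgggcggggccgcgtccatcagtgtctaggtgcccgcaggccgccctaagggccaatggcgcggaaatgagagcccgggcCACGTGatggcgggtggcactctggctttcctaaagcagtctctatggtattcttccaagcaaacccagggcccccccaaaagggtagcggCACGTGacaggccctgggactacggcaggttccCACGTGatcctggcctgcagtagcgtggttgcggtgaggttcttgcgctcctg
Rraga: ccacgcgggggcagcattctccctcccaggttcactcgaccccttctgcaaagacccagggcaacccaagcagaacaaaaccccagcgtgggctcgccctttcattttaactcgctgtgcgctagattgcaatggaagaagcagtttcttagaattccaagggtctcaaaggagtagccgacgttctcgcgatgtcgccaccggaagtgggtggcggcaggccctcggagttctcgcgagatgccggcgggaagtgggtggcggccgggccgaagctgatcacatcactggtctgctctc
Rragc: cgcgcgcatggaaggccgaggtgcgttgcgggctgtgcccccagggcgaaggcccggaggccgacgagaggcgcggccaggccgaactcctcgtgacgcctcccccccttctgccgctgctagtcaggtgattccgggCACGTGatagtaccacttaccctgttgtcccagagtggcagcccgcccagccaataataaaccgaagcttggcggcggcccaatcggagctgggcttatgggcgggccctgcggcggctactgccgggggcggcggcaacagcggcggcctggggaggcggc
Lamtor1: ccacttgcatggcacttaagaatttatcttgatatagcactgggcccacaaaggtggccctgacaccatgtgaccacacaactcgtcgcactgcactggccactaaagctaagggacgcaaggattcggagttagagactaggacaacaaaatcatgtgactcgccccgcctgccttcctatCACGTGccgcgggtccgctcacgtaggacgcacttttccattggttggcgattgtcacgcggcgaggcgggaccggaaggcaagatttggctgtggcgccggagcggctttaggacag
The matches of Rragb lay at bases 124 to 129, 215 to 220 and 248 to 253 of the window, the last across the start site, which follows base 250. Each of them was followed by an A. CACGTGA on either strand was also in the windows of Lamtor4, Rragc and Lamtor1, so in every window of the set with CACGTG. It was found in 1237 of all windows (3.77%), where 2349 held CACGTG. A match is a description of these letters and does not show that a factor binds there.

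Values below are the deposited ones, on a scale read as log2 and relative to the gene's own median over the 6 arrays, which allows comparison of 1 gene across arrays and gives no level. A cluster was placed in a brighter class (signals of 8 to 16 in log2 units ahead of centring) or a dimmer one (4 to 8) from the rounding of its numbers, which is a rough class and not a level. All genes of the set but Lamtor2 lay in the brighter class. The spread over all clusters (SD) was 0.159 on knockdown replicate 2 and 0.0531 to 0.0780 on the other arrays, and on that array the median of the genes not in the brighter class was 0.077. Of 16 neuronal and neuroblastoma markers 15 were measured and 11 were in the brighter class, with Nefl, Nefm, Th and Dbh in the dimmer one. Their median change was -0.031. In limma 3 of the 15 were lower (2.65% of all genes) and 0 higher (1.60%) at an unadjusted p under 0.05. Their median was -0.072 on knockdown replicate 2, -0.012 and -0.0024 on knockdown replicates 1 and 3, and -0.0010 to 0.029 on the control arrays. Of markers of other cells, 0 of 6 glial, 0 of 5 fibroblast, 0 of 3 macrophage and 1 of 6 endothelial and epithelial genes measured were in the brighter class. In each of these lists 0 genes were at an unadjusted p under 0.05. The glial and fibroblast lists had medians of 0.15 and 0.24 on knockdown replicate 2, between -0.0898 and 0.0010 on the other 2 knockdown arrays, and between -0.0661 and 0.0539 on the control arrays. Their part in the results was not tested.

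Usf1 and Usf2, the genes aimed at, were both lower after knockdown. Usf1 had -0.28, -0.18 and -0.26 on the knockdown arrays, against 0.18, 0.32 and 0.43 on the control arrays. Usf2 had -0.22, -0.13 and -0.12 on the knockdown arrays, against 0.12, 0.28 and 0.27 on the control arrays. The groups did not overlap for either target, and the difference was partial, at 0.682-fold for Usf1 and 0.770-fold for Usf2. Neither passed over all genes (limma adjusted p = 0.320 and 0.348), and an exact permutation test, two-sided, gave p = 0.10 for each, the smallest value 3 against 3 arrays allow.

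Among the 10 genes, Rragb stood lowest after knockdown, Lamtor2 was somewhat lower, Lamtor1 and Flcn were somewhat higher, and the other 6 differed by less than 0.1 on the log2 scale. In limma over all genes 0 of the 10 passed an adjusted p of 0.05, where 0.00603% of all genes (1 gene) did. At an unadjusted p under 0.05 there were 4 of the 10, against 4.25% of all genes, 2 higher (1.60% of all genes) and 2 lower (2.65%). The median change of the 10 was -0.013, against -6.6e-04 for all genes. In the same 4 genes the 3 knockdown arrays did not overlap the 3 control arrays, as in 10.3% of all genes, with 2 of the 10 higher (4.33% of all genes) and 2 lower (5.95%). Array quality weights, which gave knockdown replicate 1 a weight of 33.0 and so in effect compared that array with the controls, called 6 of the 10 (Rragb, Rragc, Lamtor1, Lamtor2, Lamtor4 and Flcn) beside 6.70% of all genes. Without knockdown replicate 1 or control replicate 2, 2 of the 10 were at an unadjusted p under 0.05, Rragb and Lamtor1, against 3.43% and 2.61% of all genes in these fits.

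**Figure D1:**
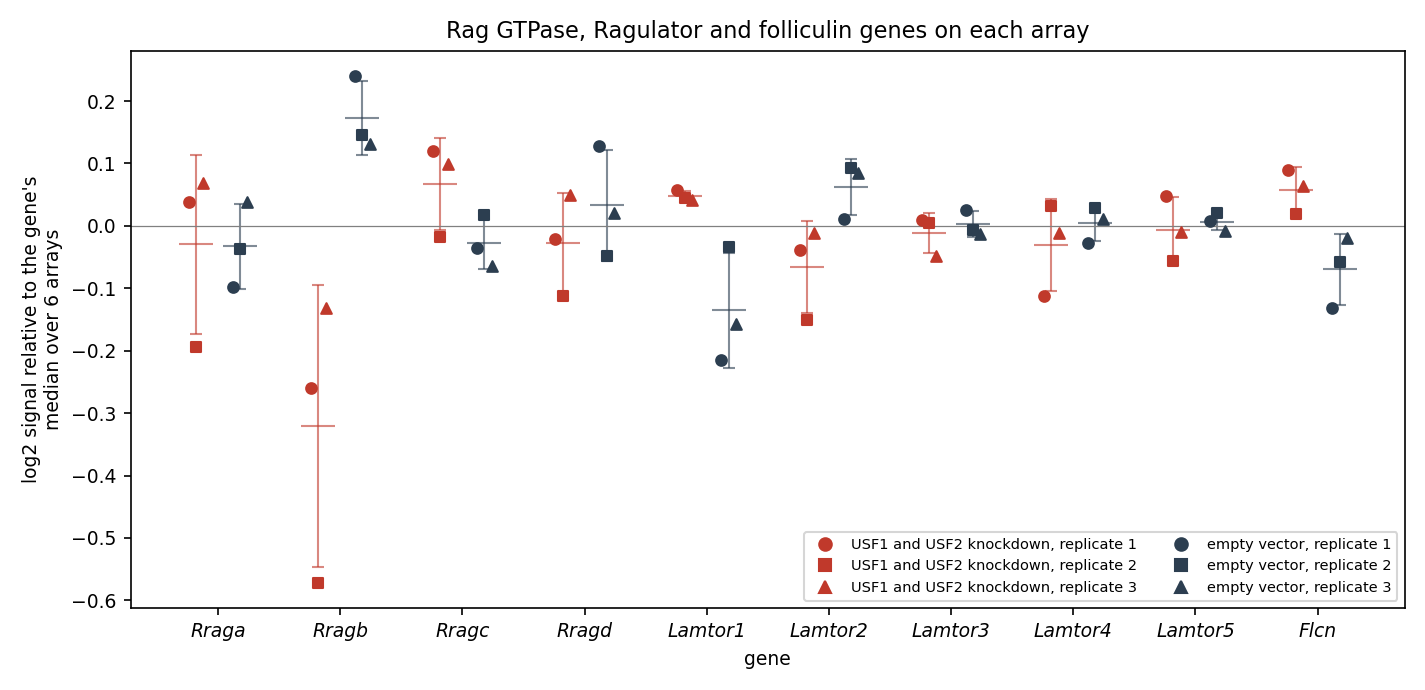
Relative log2 signal (vertical axis) of the 10 genes on each array, with knockdown arrays in red to the left of control arrays in dark blue. Marker shapes stand for replicate numbers, horizontal bars for group means and error bars for SD (n = 3 arrays per group). Rragb has the widest gap between the groups, with knockdown arrays from -0.57 to -0.13 and control arrays from 0.13 to 0.24.

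Rragb (cluster 10602692, Entrez 245670, chromosome X) encodes RagB, a RagA-like GTPase. Its relative log2 signal was -0.26, -0.57 and -0.13 on the knockdown arrays, against 0.24, 0.15 and 0.13 on the control arrays. Every knockdown array was below every control array, and knockdown replicate 2, the array with the wide spread, was lowest. The means were -0.32 ± 0.23 in knockdown cells and 0.17 ± 0.06 in control cells (SD, n = 3 each). The log2 change was -0.49 ± 0.10 (SE; 95% interval -0.73 to -0.25), or 0.710-fold. It was the 3rd lowest change of all 16583 genes, of which Usf1 was the lowest, and its rank by p was 34 (limma adjusted p = 0.759). In bulk RNA, a lower signal from fewer cells expressing a gene and from less RNA per cell cannot be told apart. Without knockdown replicate 2 the change was -0.37 (limma adjusted p = 0.135). Over the 14 alternatives run, the change of Rragb lay between -0.59 and -0.37 and the unadjusted p stayed under 0.05 in each.

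Rraga (cluster 10505747) encodes RagA, the more widely studied partner of RagC and RagD. It had 0.038, -0.19 and 0.069 on the knockdown arrays, against -0.099, -0.038 and 0.038 on the control arrays. The groups overlapped, with knockdown replicate 2 the lowest array here too. The log2 change was 0.0034 ± 0.08 (SE; 95% interval -0.17 to 0.18; limma adjusted p = 0.999), and its sign turned without knockdown replicate 1 or 3 or control replicate 1. Rraga and Rragb are near-identical in much of their protein, and whether probes of one also read the other was not tested. The difference between Rragb and Rraga was also taken within each array. Rragb minus Rraga was -0.30, -0.38 and -0.20 on the knockdown arrays, against 0.34, 0.18 and 0.094 on the control arrays. The groups did not overlap, and the gap between their means was -0.50 on the log2 scale. An exact permutation test, two-sided, gave p = 0.10, the smallest possible with 3 against 3 arrays (0.15 adjusted over 3 pairs). Rragb alone already separated the groups and the change of Rraga was 0.0034, so the gap is nearly the change of Rragb. It adds no evidence to the values of Rragb.

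Rragc and Rragd encode RagC and RagD, the other partner of the Rag pair, on which folliculin acts. Rragc had 0.12, -0.017 and 0.098 on the knockdown arrays, against -0.036, 0.017 and -0.064 on the control arrays. Knockdown replicates 1 and 3 were above all controls and replicate 2 was not. The log2 change of Rragc was 0.095 ± 0.05 (SE; 95% interval -0.025 to 0.21; limma adjusted p = 0.996). Rragd, a known target of TFEB, had -0.020, -0.11 and 0.049 on the knockdown arrays, against 0.13, -0.048 and 0.020 on the control arrays. These groups overlapped throughout, and the log2 change was -0.061 ± 0.06 (SE; 95% interval -0.21 to 0.084; limma adjusted p = 0.996). The change of Rragd was -0.014 without control replicate 1, -0.019 without knockdown replicate 2, -0.099 without knockdown replicate 3 and -0.10 without control replicate 2. Within an array, Rragd minus Rragc was -0.14, -0.094 and -0.050 with knockdown, against 0.16, -0.066 and 0.085 with empty vector, and the gap of -0.16 did not pass (exact two-sided permutation p = 0.2, and 0.2 adjusted over 3 pairs).

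**Figure D2:**
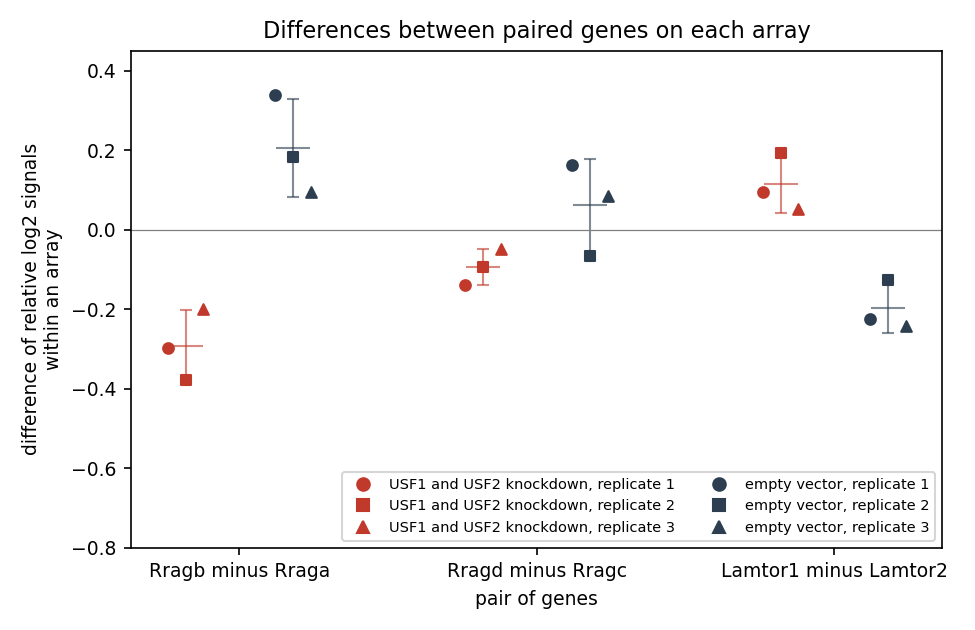
Difference between the relative log2 signals of paired genes within each array (vertical axis), with knockdown arrays in red left of control arrays in dark blue. Shapes stand for replicates, horizontal bars for means and error bars for SD (n = 3 arrays per group). The groups are apart for Rragb minus Rraga, as they already were for Rragb alone, and overlap for Rragd minus Rragc. For Lamtor1 minus Lamtor2 they are apart because each gene alone already separated them, in opposite directions.

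The Ragulator genes lay on both sides of 0, with Lamtor1 above it and the other 4 below. Lamtor1, the lipid-anchored subunit that wraps the others and holds them on the lysosome, had 0.057, 0.044 and 0.042 on the knockdown arrays, against -0.21, -0.035 and -0.16 on the control arrays. The knockdown arrays were close together and above every control, while the controls were spread. The log2 change was 0.18 ± 0.05 (SE; 95% interval 0.058 to 0.31), or 1.14-fold (limma adjusted p = 0.996). Lamtor1 was read by 2 clusters annotated with the same RefSeq transcript, 10460765 with a log2 change of 0.17 ± 0.05 and 10555586 with 0.20 ± 0.06 (SE). On both clusters every knockdown array lay above every control, and clusters of 1 transcript may not be independent readings. Where in the genome each cluster lies was not checked. All 6 fits without 1 array kept the unadjusted p of Lamtor1 under 0.05. Lamtor2 (cluster 10499420), a roadblock-fold subunit that pairs with Lamtor3, had -0.039, -0.15 and -0.011 on the knockdown arrays, against 0.011, 0.093 and 0.084 on the control arrays. The groups did not overlap, but knockdown replicate 3 and control replicate 1 lay close to each other. The log2 change was -0.13 ± 0.05 (SE; 95% interval -0.25 to -0.0082), or 0.914-fold (limma adjusted p = 0.996). Lamtor2 is the gene of the set in the dimmer class, and 2 of the 6 fits without 1 array kept its unadjusted p under 0.05. On knockdown replicate 2, where the genes outside the brighter class had a median above 0, it was at its lowest. Lamtor1 minus Lamtor2 within an array was 0.096, 0.19 and 0.053 with knockdown, against -0.23, -0.13 and -0.24 with empty vector. The gap of 0.31 adds no evidence to the values of the single genes, since Lamtor1 alone lay above and Lamtor2 alone below every control and their difference had to separate the groups.

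The remaining Ragulator genes had small changes. Lamtor3, the partner of Lamtor2 and also a scaffold of MAP kinase signalling, had 0.010, 0.0053 and -0.048 on the knockdown arrays, against 0.026, -0.0061 and -0.013 on the control arrays. Its 2 clusters, 10496397 and 10566405, whose places in the genome were not checked either, changed by -0.017 and -0.0090. The gene changed by -0.013 ± 0.04 (SE; 95% interval -0.11 to 0.083). Lamtor4 and Lamtor5 form the second roadblock pair of the complex. Lamtor4 had -0.11, 0.031 and -0.011 on the knockdown arrays, against -0.027, 0.028 and 0.011 on the control arrays, a log2 change of -0.035 ± 0.05 (SE; 95% interval -0.15 to 0.081), or -0.12 with array quality weights. Lamtor5 had 0.048, -0.056 and -0.010 on the knockdown arrays, against 0.0074, 0.021 and -0.0074 on the control arrays, a log2 change of -0.013 ± 0.04 (SE; 95% interval -0.12 to 0.089). In all 3 the groups overlapped (limma adjusted p = 0.996 for each), and their signs turned under other settings. The intervals leave room for changes of about 0.1 on the log2 scale in either direction.

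Flcn (cluster 10386427), the folliculin gene mutated in Birt-Hogg-Dube syndrome in humans, had 0.090, 0.019 and 0.064 on the knockdown arrays, against -0.13, -0.058 and -0.019 on the control arrays. Every knockdown array was above every control, by a small margin between knockdown replicate 2 and control replicate 3. The log2 change was 0.13 ± 0.05 (SE; 95% interval 0.017 to 0.24), or 1.09-fold (limma adjusted p = 0.996). Of the 6 fits without 1 array, 2 kept the unadjusted p of Flcn under 0.05. Its partners Fnip1 and Fnip2, which fold with folliculin into the active complex, changed by 0.080 ± 0.05 and 0.0099 ± 0.04 (SE). Fnip1 had its knockdown arrays above all its controls, and neither passed (limma adjusted p = 0.996 for both).

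The other genes of the route from amino acids to mTORC1 were read from 9 lists, with 38 of 41 genes measured. In limma 0 of the 38 passed over all genes. At an unadjusted p under 0.05 there was 1, higher (1.60% of all genes), and 0 lower (2.65%), with a median change of -0.011. That gene was Sesn2, a leucine sensor and stress-response gene, at 0.18 ± 0.05 (SE, limma adjusted p = 0.911), 1.14-fold. Its relatives Sesn1 and Sesn3 were at 0.027 ± 0.07 and -0.094 ± 0.05 (SE). Over the 7 genes of the sensor list 3 lay above 0 and 4 below, with 1 and 0 at an unadjusted p under 0.05. In GATOR1, the complex that switches RagA and RagB off, 3 of 3 genes were measured, with Nprl3 the smallest p at -0.041 ± 0.04 (-0.026 without control replicate 3). In GATOR2, which opposes GATOR1, 5 of 5 were measured, with Wdr59 the smallest p at 0.075 ± 0.05 (0.033 without knockdown replicate 2). KICSTOR, which holds GATOR1 on lysosomes, had 2 of 4 measured, with Itfg2 at -0.084 ± 0.04.

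The mTORC1 kinase complex itself had 5 of 5 genes measured, with changes from -0.0098 to 0.084. Deptor, an inhibitor of the kinase, had the smallest p there, at 0.084 ± 0.06 (SE), and was at 0.042 and 0.045 without knockdown replicate 3 and control replicate 2. The GTPase Rheb, which activates mTORC1, was at -0.011 ± 0.06, and Tbc1d7, a subunit of the TSC complex that turns Rheb off, was at -0.25 ± 0.15, with the widest error among the pathway genes, and at -0.081 without knockdown replicate 2. The MiT/TFE factors, which mTORC1 keeps out of the nucleus through the Rags, had 3 of 3 measured and changes from -0.037 to 0.058, with Tfeb highest (0.032 without control replicate 2). BORC, a complex that binds Ragulator and positions lysosomes, had 7 of 8 genes measured, 6 below 0 and 1 above, with a median of -0.042 and Bloc1s1 the smallest p at -0.11 ± 0.06 (-0.17 and -0.070 without control replicates 1 and 2). Of all 16583 genes, 8362 were below 0. In limma 0 genes of these 4 lists were at an unadjusted p under 0.05. Mios of GATOR2, Tbc1d7 and Borcs7 of BORC each had a value on knockdown replicate 2 far below those on the other arrays, at -0.40, -0.51 and -0.48, and were chosen for mention after these values were seen.

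**Figure D3:**
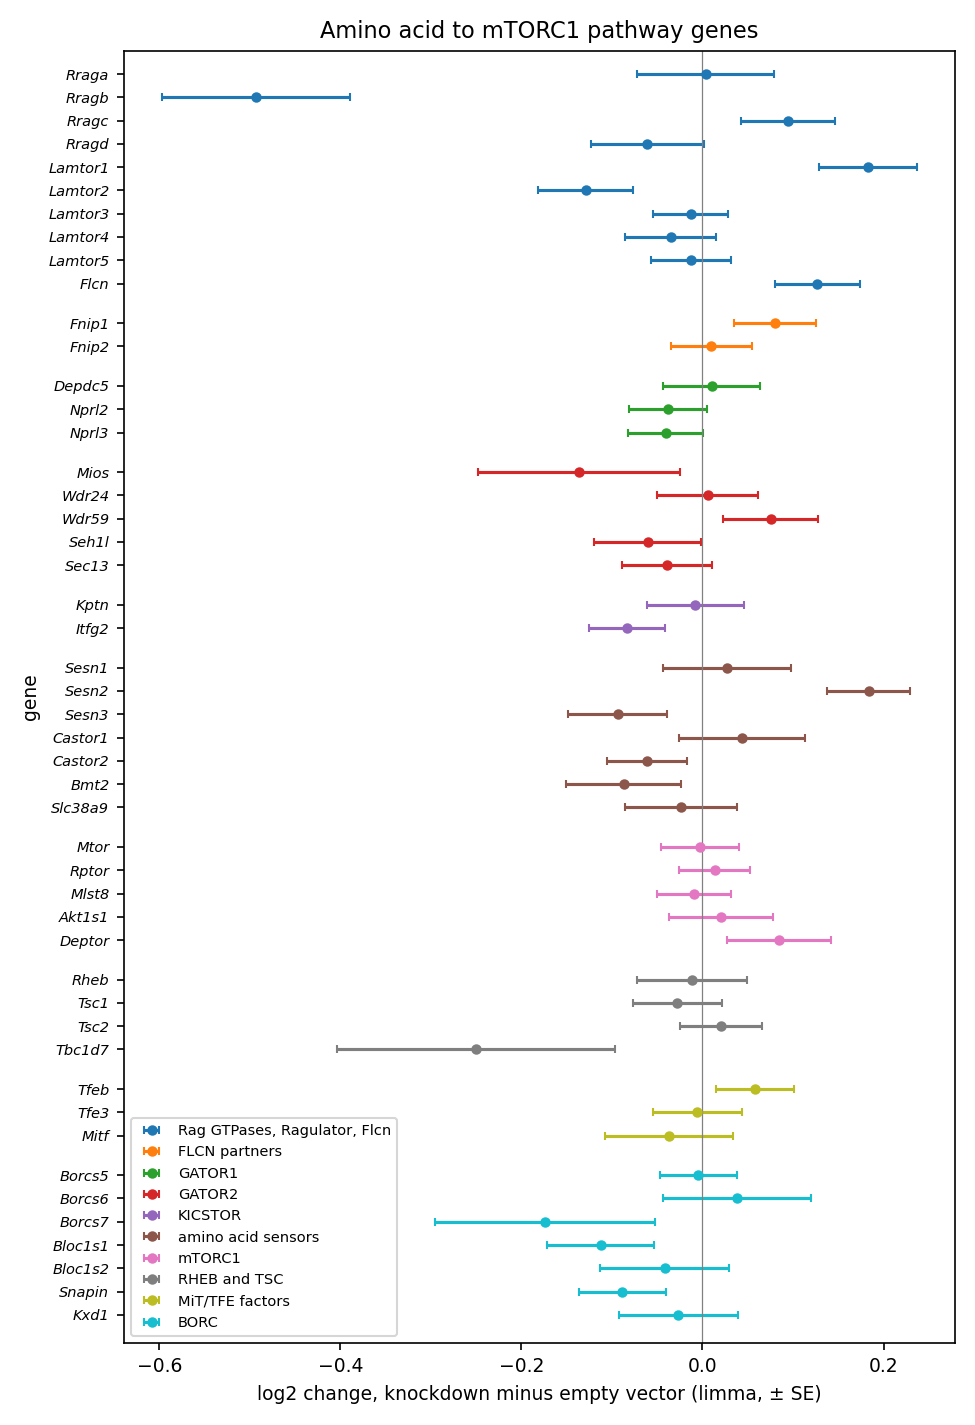
Log2 change of knockdown minus empty vector (horizontal axis, limma, bars ± SE, n = 3 arrays per group) for the 10 genes of the set and the 38 measured genes of 9 related lists, coloured by list. Rragb lies farthest from 0 at -0.49, and most other genes lie within 0.1 of it.

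The number of CACGTG matches did not order the changes among the 9 genes with a promoter window. Rragb, with 3 matches, was at -0.49, while Lamtor1 and Rragc, with 1 each, were at 0.18 and 0.095. Lamtor4, with 2 matches, was at -0.035, and the genes without a match ran from -0.13 for Lamtor2 to 0.13 for Flcn. Of all tested genes, 10609 had exactly 1 promoter window. The median change was -0.0013 over the 9615 genes with 0 matches, 0.0024 over the 890 with 1, -0.0094 over the 89 with 2 and 0.081 over the 15 with 3 or more. Of those 15, Rragb was the lowest and had the smallest p, and 1 was lower and 3 higher at an unadjusted p under 0.05. The median of the 15 was 0.064, 0.13 and 0.050 on knockdown replicates 1, 2 and 3 against the control mean, and 0.036 without knockdown replicate 2. This grouping was chosen after the promoter of Rragb had been read, and no test was made of it.

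**Figure D4:**
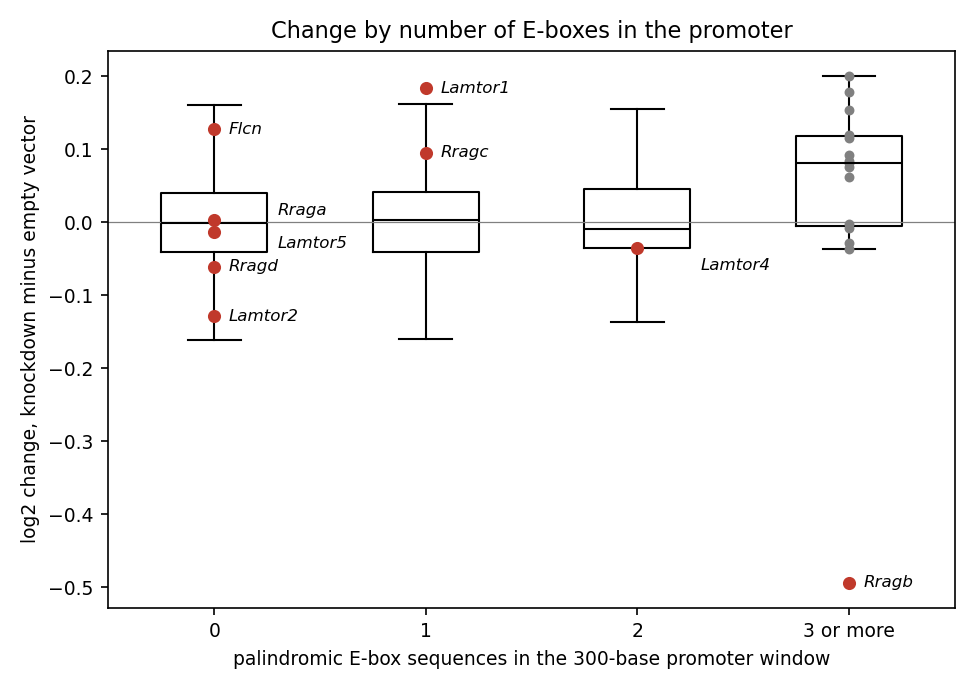
Log2 change of knockdown minus empty vector (vertical axis) by the number of palindromic E-box sequences in the 300-base promoter window, over 10609 genes. Boxes show quartiles and the median, whiskers reach 1.5 times the quartile range, points beyond them are not drawn, grey points are the genes with 3 or more, and red points are genes of the set. Rragb lies at -0.49, below the other 14 genes with 3 or more.

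The genes whose pattern was most like that of Rragb were sought by Pearson r over the 6 arrays. The highest were Ccdc112 (r = 0.993), Ankrd45 (0.993), Purb (0.990), Eif4e2 (0.990) and Sh3pxd2a (0.990), and 102 genes had an r over 0.95. Their log2 changes were -0.27 for Ccdc112 and Ankrd45, -0.18 for Purb, -0.016 for Eif4e2 and -0.13 for Sh3pxd2a. These values share the same 6 arrays, the split between the groups and the low value of knockdown replicate 2, and r takes no account of size.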

How the data were processed

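The authors deposited 1 table of log2 values for 22891 transcript clusters on 6 arrays, each cluster relative to its own median (largest absolute median 5.0e-07). Per the labels' protocols, RNA was made into cDNA with the Ambion WT Expression kit and then labelled with the WT Terminal Labeling kit of Affymetrix. The steps of background correction, normalization and filtering are not given in what was used here, and the log2 scale was read from the numbers. The brightness classes rest on whether differences between arrays are whole multiples (tolerance 0.05) of the smallest step that single-precision numbers have between 8 and 16 or between 4 and 8, using values of at least 0.001. Some clusters may be placed wrongly by chance.

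Clusters were named by the platform's annotation; 18087 had 1 symbol, 1145 several and 3659 were unnamed here, and clusters of a gene were averaged, giving 16583 genes. Changes are knockdown minus empty vector from lmFit and eBayes in limma 3.58.1 (R 4.3.3), adjusted by Benjamini-Hochberg over all genes (threshold 0.05). The number of arrays limits the precision, with a median SE of 0.0561. Differences within an array were tested by exact permutation. The fit was tested on simulated data in which a gene had the same spread on all arrays. That test does not cover the wide spread of knockdown replicate 2. Alternatives covered array centring, quantile normalization, robust variance, array weights, brightness, cluster averaging, unnamed clusters, a replicate block and leaving out each array. Tables and figures used Python 3.11.15, NumPy 2.4.6, pandas 2.3.3 and matplotlib 3.10.9.

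All 10 genes, both targets, the 5 genes most like Rragb by r, and of each pathway list those at an unadjusted p under 0.05 or else the one with the smallest p were to be named. Others named complete the description of a list and were picked with their values known. The members and lists were chosen with earlier results of these data known.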

Additional observations from a re-analysis of the deposited data

How the results depend on the processing

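Over 14 alternatives, 0 of the 10 genes passed an adjusted p of 0.05 in limma except with array quality weights, where 6 did and where Usf1 was at -0.62 and Usf2 at -0.46 (limma adjusted p = 3.5e-04 and 6.3e-04). At an unadjusted p under 0.05 the count of the 10 was 4 in the fit reported. It was 5 after quantile normalization, 6 with array quality weights and 2 with a replicate block. In the 6 fits without 1 array it was 2 to 4. Among brighter genes only it was 3, in a fit that left out Lamtor2. For the other 38 pathway genes that count was 1 as reported, 11 with array quality weights and 1 to 3 without 1 array. Among brighter genes only, which held 26 of the 38, it was 2. The share of all genes at an unadjusted p under 0.05 was 4.25% as reported, 3.84% with the block, 5.41% after quantile normalization, 26.3% with array quality weights, 7.69% among brighter genes only and 2.23% to 7.53% without 1 array. Correlations of deviations from the group means between arrays of the same number were 0.0031, 0.082 and 0.036 for knockdown replicates 1, 2 and 3. The best with a control array of another number were 0.024, -0.038 and 0.053. With deviations from means of 3 arrays, these values cannot settle whether the replicate numbers pair the samples. A block cannot move a change in this balanced design, and with the replicate block the limma adjusted p of Rragb was 0.997 at a change of -0.49. Of 139 values for the 10 genes under alternatives, 9 turned in sign, all of genes with small changes. With array quality weights Lamtor3 was at 0.012, Lamtor4 at -0.12 (limma adjusted p = 0.0488) and Lamtor5 at 0.041, the last also at 0.0091 after quantile normalization. Without 1 array, Rraga ran from -0.046 to 0.086, Lamtor3 from -0.023 to 0.0054, Lamtor4 from -0.066 to 0.0060 and Lamtor5 from -0.040 to 0.012. The array weights also called Sesn2 (0.13). The cause was not tested. The within-array differences of Rragb and Rraga, nearly the change of Rragb, and of Rragd and Rragc kept their direction in the 8 alternatives run for each. No level is known, so how far signal over background limits these genes is not known.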

Other observations

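Of the 15 genes with 3 or more CACGTG in their promoter window, those at an unadjusted p under 0.05 besides Rragb were all higher in knockdown cells. They were Mfsd1, a lysosomal transporter, with 5 matches and a log2 change of 0.20 ± 0.05 (SE), Lamp1, a major lysosomal membrane glycoprotein, with 4 matches and 0.15 ± 0.04, and the DNA repair endonuclease gene Apex1 with 3 matches and 0.18 ± 0.05. None passed over all genes (limma adjusted p from 0.879 to 0.996), and they were named after their values were seen. The cell cycle kinase gene Cdk4, with 4 matches, was at -0.0029 ± 0.05. Over the 11 of the 15 in the brighter class the median was 0.076, and it was 0.069 over 20 genes when genes with several windows were counted by their highest window. Among all 890 genes with 1 match, 4.72% were lower at an unadjusted p under 0.05, against 2.33% of the 9615 with 0 matches, and 2.25% were higher, against 1.60%. Among brighter genes with 1 match 5.63% were lower, against 3.30%, and 3.33% were higher, against 1.18%. With 2 matches 4 of the 89 genes were lower (4.49%) and 5 higher (5.62%). Of the 52 brighter ones, 3 were lower (5.77%) and 4 higher (7.69%). These shares were above those with 0 matches in both directions, but with 2 matches they rest on few genes. No test was made of either direction. Promoters with the sequence may also differ in base composition and class, which were not measured here. The part of such differences in these shares was not tested.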
